A study of Homo sapiens with 4 samples.

Results

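The interferon response and RNA-sensing genes are a list of 48 human genes that act in the detection of double-stranded RNA and in the response to interferon. A member was taken as measured when a probe carried an accession of that gene and was well above background on all 4 arrays. Of the 48 genes, 47 had such a named probe and 46 were measured, among 13602 named genes measured in the same way. IFI27 had no probe that could be named through its accession, and IRF2 was not well above background on 1 array. The rule takes genes by name and uses no measured value, and the list was drawn up with earlier results of these data known.

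HuCCT1, a human cholangiocarcinoma cell line, was transfected with Pre-miR-376c, a synthetic mimic of mature miR-376c-3p, or with an siRNA against GRB2, each at 30 nM with a lipid reagent. The Pre-miR negative control and a non-silencing siRNA negative control were the matching controls, so that every array comes from cells that received a short double-stranded RNA, and no untransfected cells were on an array. From 24 h after transfection, all 4 cultures were exposed for another 24 h to 5 ng/ml EGF with 0.1% serum. The siRNA is named siGRB2 in the labels and siGRB2-2 in the study, and the second name is used here. Each condition had 1 array, so there was no replicate, no test and no SD of a condition, and every difference below is one between 2 arrays.

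Double-stranded RNA in a cell is bound by sensors such as RIG-I, MDA5, TLR3 and the kinase PKR, and sensor signalling through IRF3 and IRF7 switches on interferon genes. Secreted interferon binds its receptors on the same and neighbouring cells, and a complex of STAT proteins with IRF9 then activates a large group of target genes through the interferon-stimulated response element, a short DNA motif. The targets include proteins that block viral translation, degrade RNA or restrict virus entry and release, and proteins that load peptides on MHC class I molecules. Synthetic short RNAs can reach some of these sensors, which makes this gene group a usual check in transfection experiments.

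The RNA added to the cells of the Pre-miR-376c array is a double-stranded mimic of the mature miRNA. The mature strand is shown with its seed (bases 2 to 8) in capitals. RefSeq places the mature miRNA at chr14:101039732-101039752 on the plus strand of GRCh38.p14.
hsa-miR-376c-3p: aACAUAGAggaaauuccacgu

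The core of the interferon-stimulated response element was searched as GAAANNGAA on both strands in RefSeq promoters, from 250 bases before to 50 after the start of each transcript. A RefSeq promoter was at hand for 37 of the 48 members, and 25 of these (67.6%) held the core, against 9.86% of 27305 genes. The gamma activated site, searched as TTCNNNGAA on both strands, was in 12 of the 37 (32.4%), against 9.38% of all genes. Stretches around the matches are shown for 3 members that stood highest on the siRNA negative control array (IFI44, IFI44L and MX1) and for 2 with the same core whose signal differed little between the arrays (IFIT1 and ISG15). Capitals mark each match to the core, read 5′ to 3′ on the strand of the gene, where TTCNNTTTC is the same core on the other strand.
IFI44 (chr1:78649752-78649800, plus strand, GRCh38.p14): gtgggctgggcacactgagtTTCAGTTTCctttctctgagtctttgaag
IFI44L (chr1:78620264-78620403, plus strand, GRCh38.p14): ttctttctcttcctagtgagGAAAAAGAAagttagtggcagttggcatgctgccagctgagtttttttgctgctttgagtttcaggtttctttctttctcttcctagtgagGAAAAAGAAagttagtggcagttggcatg
MX1 (chr21:41431835-41431883, plus strand, GRCh38.p14): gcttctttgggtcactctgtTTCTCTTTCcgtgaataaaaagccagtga
IFIT1 (chr10:89392488-89392549, plus strand, GRCh38.p14): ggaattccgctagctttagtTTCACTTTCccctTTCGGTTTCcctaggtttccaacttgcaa
ISG15 (chr1:1013364-1013424, plus strand, GRCh38.p14): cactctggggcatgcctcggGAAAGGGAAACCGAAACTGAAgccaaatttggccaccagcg

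Signals are given as log2 of the processed intensity minus the 75th percentile of the array, so that 0 is the 75th percentile of all probes and 1 unit is a 2-fold step. A level can be set against the same gene on another array but not against another gene, since probes differ in brightness. Beside a difference, the error is the one the scanner software gives for the spots, about 0.20 for a gene with 1 probe. It covers the reading of the array and not the variation between cultures. The 75th percentile signal was 1719 to 2689 and 21811 to 24119 probes were detected per array, all on 1 slide read in 1 scan. GRB2, the targeted gene, differed by -0.55 on the log2 scale between each treated array and its own control, with an error of 0.20. The negative controls differed by -0.72 for GRB2 themselves (siRNA minus Pre-miR), and GRB2 was 0.17 higher with Pre-miR-376c than with siRNA negative control. All 7 markers of biliary epithelium, such as KRT19, were detected on all 4 arrays, with a summed signal of 765 to 981 times the 75th percentile. The summed signal of 4 immune cell markers was 0.853 to 1.05, and 3 of them, PTPRC included, were detected on all 4 arrays. COL1A1 of fibroblasts and APOA1 of hepatocytes were detected on all 4 arrays, COL3A1 and ALB on none, and PECAM1 of endothelium on 2. Probes differ in brightness and number, so these sums give no ratio between cell types. The part of such signals in the results was not tested.

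Pre-miR-376c and its negative control differed little in this gene group. The median log2 difference of the 46 genes was -0.00, against -0.02 over all measured genes, with 23 members higher and 23 lower. The SD of the differences across the members was 0.24, against 0.34 across all genes. Only OASL passed 2-fold, being higher with Pre-miR-376c, and no member was at least 2-fold lower. Over all genes, 0.434% were at least 2-fold higher and 0.706% at least 2-fold lower. At a 1.5-fold limit OASL was still the one member that passed, against 2.68% of all genes higher and 5.12% lower.

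siGRB2-2 and its own negative control lay further apart, for the members as for all genes. The median log2 difference of the members was -0.07, which is 0.18 below the median of all genes (0.11). Of the members, 18 were higher (39.1%, against 58.6% of all genes) and 28 lower. IFI44 passed 2-fold, being lower with siGRB2-2, where 2.44% of all genes were lower. No measured member was at least 2-fold higher, against 4.30% of all genes. IRF2 was not well above background on siRNA negative control, so it is outside the counts of members and is given below with bounds. At 1.5-fold, 7 members were lower (IFI44, TRIM25, TAP2, MX1, IFI44L, DHX58 and STAT2), which is 15.2% of the members and 10.9% of all genes. IRF9 was the one measured member at least 1.5-fold higher (2.17%), where 17.6% of all genes were.

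The pairs across the 2 kinds of reagent show on which array the difference lies. These pairs share arrays, and each is given by its own values. Neither siRNA negative control nor Pre-miR negative control targets GRB2. Between them, 10 measured members were at least 1.5-fold higher on the siRNA control (21.7% of members, 10.4% of all genes). Another 2 were lower (4.35%, against 14.7%). The 2 members past 2-fold there were IFI44 and MX1, both higher, where 2.06% of all genes were higher and 3.64% lower. Between siGRB2-2 and Pre-miR negative control, by contrast, OASL was the one member at least 2-fold higher (background 0.507%) and none was 2-fold lower (0.426%). At 1.5-fold in that pair, OASL was higher (2.71% of all genes) and IFIT2 lower (2.40%).

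The Pre-miR-376c array, set against siRNA negative control, gave 8 members at least 1.5-fold lower (MX2, IFI44L, MX1, IFI44, STAT2, ISG20, DHX58 and TRIM25; 17.4%, against 10.7% of all genes). IRF1 was the one measured member at least 1.5-fold higher, against 11.4% of all genes. MX2 was lower by more than 2-fold (background 2.49%), and no measured member was higher by 2-fold (2.07%). Set against each other, the 2 treated arrays had MX2 at least 1.5-fold higher with siGRB2-2 (4.31% of all genes) and none lower (1.73%), and no member past 2-fold in either direction (0.662% higher and 0.294% lower).

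**Figure D1:**
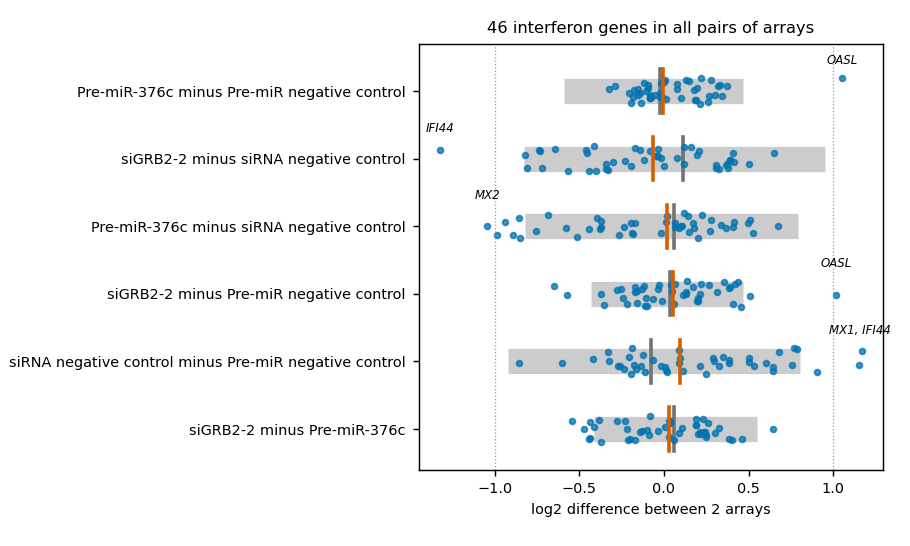
Log2 difference of each of the 46 measured members (blue points) in the 6 pairs of arrays, with the first named array minus the second. Orange ticks are the median of the members, dark grey ticks the median of all 13602 genes and grey bars the range from the 5th to the 95th percentile of all genes; dotted lines mark 2-fold. Genes past 2-fold are named, and the members' medians lie between -0.07 and 0.09.

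Which array stood apart was read from each gene's level on 1 array against its range on the other 3. The siRNA negative control array held the highest of the 4 values for 20 members (43.5%, against 31.1% of all genes) and the lowest for 11 (23.9%, against 43.3%). It was at least 1.5-fold above every other array for IFI44, MX1, IFI44L, DHX58 and TRIM25 (5 members), where 5.48% of all genes were. For no measured member was it at least 1.5-fold below them, against 6.78% of all genes. IRF2, not well above background on that array alone, is outside this count. OASL alone stood as far below the rest on the Pre-miR negative control array (background 0.426%), and no member stood as far above on that array (0.625%). No member did so in either direction on the Pre-miR-376c array (0.309% of all genes above, 0.596% below) or on the siGRB2-2 array (0.676% above, 0.228% below). Over the 4 arrays 32 of the 46 members (69.6%) stayed within 1.5-fold, against 57.0% of all genes, and 4 (8.70%) spanned 2-fold or more, against 11.5%. A range can only narrow when an array is left out. Without the siRNA negative control array 43 members (93.5%, against 87.0% of all genes) stayed within 1.5-fold and 1 (2.17%, against 2.12%) spanned 2-fold. Without any 1 of the other arrays 32 to 35 members (69.6% to 76.1%, against 63.4% to 64.7% of all genes) stayed within 1.5-fold. In those cases 2 to 4 members (4.35% to 8.70%, against 8.58% to 9.42%) spanned 2-fold.

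**Figure D2:**
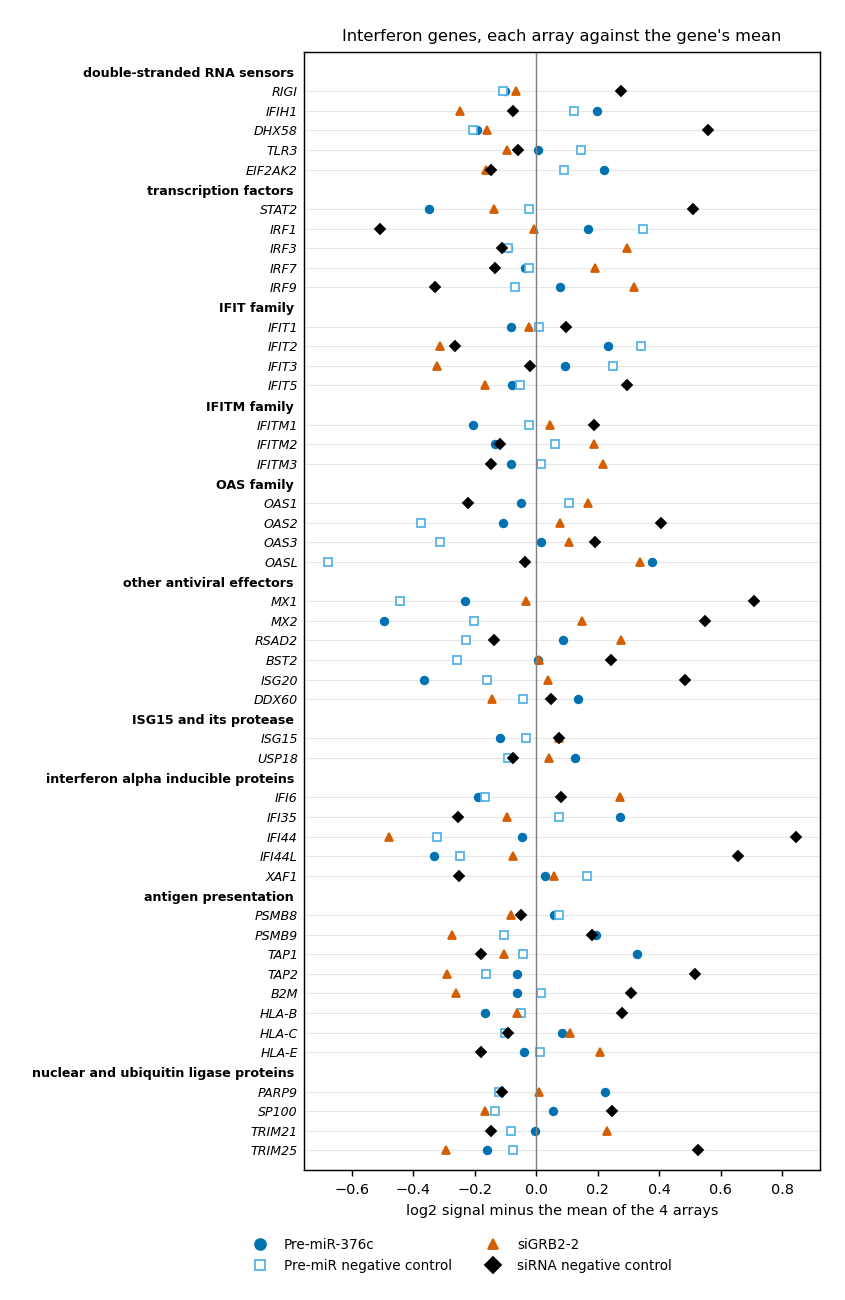
Log2 signal of each member on each array minus that gene's mean over the 4 arrays, grouped by role. Black diamonds (siRNA negative control) lie farthest to the right for IFI44, MX1 and IFI44L, and to the left for IRF1, while the open square of Pre-miR negative control is farthest left for OASL.

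The choice of scaling decides the sign of small differences. When the arrays were set equal at their medians instead of their 75th percentiles, the all-gene median moved by -0.28 between siGRB2-2 and siRNA negative control and by 0.27 between the 2 negative controls. In the first pair 12 members were then higher and 34 lower, and in the second 41 were higher and 5 lower. The median of all genes was itself -0.17 in the first pair and 0.19 in the second under that scaling. The shares of all genes higher or lower there were not computed. A constant shift leaves the distance of the members' median from that of all genes as it is (-0.18 and 0.17). After quantile normalization, which is no constant shift, the distances were -0.08 and 0.09. The largest difference that changed sign under either scaling was 0.27.

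The sensors of double-stranded RNA were all measured. DHX58 (LGP2, which regulates the other RIG-I-like receptors) had a log2 signal of 0.00 with Pre-miR-376c and -0.01 with its control, and of 0.04 with siGRB2-2 and 0.76 with its control. It was high on the last array and level on the other 3. RIGI, which senses RNA ends, was at -1.49, -1.49, -1.45 and -1.11 in the same order, which all sets of 4 values below follow, again highest on siRNA negative control, and its 2 probes gave 0.38 and 0.39 for the difference between the negative controls.

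IFIH1 (MDA5, a sensor of long double-stranded RNA) was at 0.71, 0.63, 0.26 and 0.43, lower on both siRNA arrays than on both Pre-miR arrays. TLR3, the endosomal sensor, followed the same order of reagents within a narrow range (-0.50, -0.36, -0.60 and -0.56). EIF2AK2 (PKR, the kinase that stops translation) was at 0.20, 0.07, -0.18 and -0.16, but its 2 probes opposed each other against siRNA negative control, at -0.50 and 0.46 for siGRB2-2. Against siRNA negative control, all 5 sensors were lower with siGRB2-2 (-0.02 to -0.72), where 58.6% of all genes were higher. For IFIH1, TLR3 and EIF2AK2 that difference was within the reading error (-0.17, -0.03 and -0.02). Against Pre-miR negative control the differences of Pre-miR-376c for the 5 lay between -0.14 and 0.13, within the reading error.

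Among the transcription factors, STAT2, which forms the interferon-activated complex with IRF9, was at 3.31 with Pre-miR-376c and 3.64 with its control, and at 3.52 with siGRB2-2 and 4.17 with its control. Both treated arrays were below both controls, and the differences from the own control were -0.33 (Pre-miR-376c) and -0.65 (siGRB2-2). IRF9, its partner, ran the other way, at -0.99, -1.14, -0.75 and -1.40, so that siGRB2-2 was 0.65 above its control and Pre-miR-376c 0.15 above its own. IRF1, an activator induced by interferon gamma, was lowest on siRNA negative control, at -1.76, against -1.26 to -0.91 on the other 3 arrays.

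IRF3, which carries the sensor signal to the interferon genes, was at 0.14 to 0.16 on 3 arrays and at 0.54 with siGRB2-2, and both of its probes gave the step (0.37 and 0.41 against Pre-miR-376c). IRF7, its inducible relative, was also highest with siGRB2-2 (3.55, against 3.22 to 3.33). IRF2, a repressor, was measured on 3 arrays with its dim probe at -5.44 with Pre-miR-376c, -5.53 with Pre-miR negative control and -5.00 with siGRB2-2. On siRNA negative control it was not well above background, and so was at least 2.50-fold higher with siGRB2-2 and at least 1.84-fold higher with Pre-miR-376c than there. Each bound takes the siRNA control at the lowest signal of a detected probe or at the probe's own signal, whichever was higher.

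**Figure D3:**
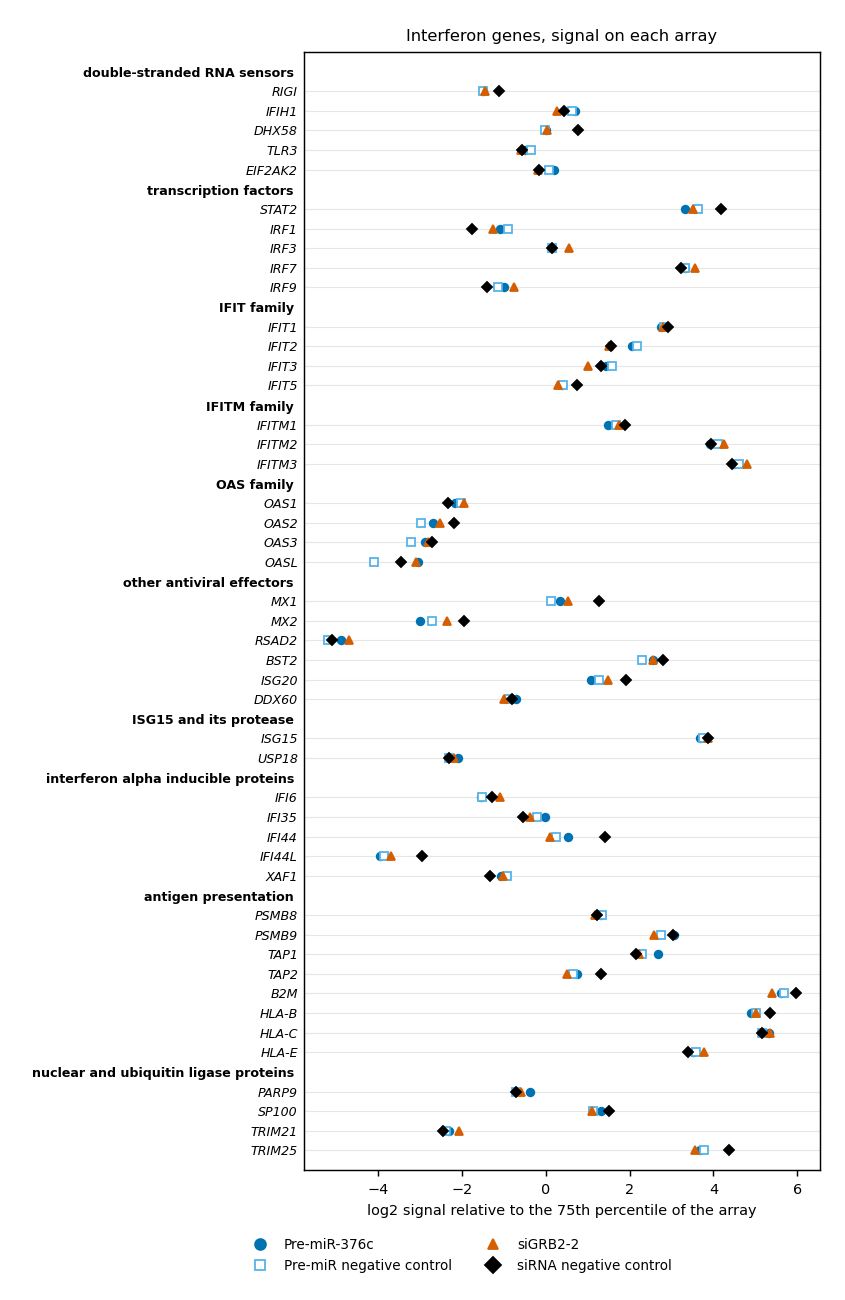
Log2 signal, minus the array's own 75th percentile, for the 46 measured members, grouped by role, with 1 symbol per array. Positions can be compared along a line and not between lines; for most genes the 4 symbols nearly coincide, and the black diamond of siRNA negative control lies apart for STAT2, DHX58, MX1, IFI44, IFI44L, TAP2 and TRIM25.

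The IFIT proteins bind viral RNA and block its translation. IFIT1 hardly varied, at 2.74, 2.83, 2.80 and 2.92 in the same order of arrays. IFIT2 was at 2.06 and 2.17 on the Pre-miR arrays and at 1.52 and 1.57 on the siRNA arrays. The groups of reagents did not overlap for IFIT2, with a gap of 0.50, the widest of any member that was lower on both siRNA arrays, but its 2 probes differed by 1.16 in the difference between the negative controls (-1.18 and -0.02). IFIT3 was at 1.43, 1.58, 1.01 and 1.31, and IFIT5 at 0.38, 0.40, 0.29 and 0.75. As means of their probes, all 4 were lower on each treated array than on its own control. The differences were -0.15 to -0.03 for Pre-miR-376c and -0.46 to -0.05 for siGRB2-2. Of all genes, 46.9% were higher in the first of these comparisons and 58.6% in the second. The 2 probes of IFIT2 did not share a sign in either comparison, at -0.44 and 0.34 for siGRB2-2 and -0.211 and 0.001 for Pre-miR-376c. The directions of the 4 genes also depend on the scaling. With median scaling 3 of the 4 were higher with Pre-miR-376c, and after quantile normalization 2 of the 4 were higher with siGRB2-2.

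The IFITM proteins, which restrict fusion of viruses at membranes, moved within narrow limits. IFITM1, IFITM2 and IFITM3 were each lower with Pre-miR-376c than with its control, with differences of -0.19 to -0.10. Each was higher with siGRB2-2 than with Pre-miR-376c, by 0.25 to 0.32. Against its own control siGRB2-2 was 0.31 higher for IFITM2 and 0.37 higher for IFITM3, and the difference was -0.14 for IFITM1.

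In the OAS family, OASL was the member past 2-fold, in both treated arrays against Pre-miR negative control. OASL, a relative of the OAS enzymes without their activity that enhances RIG-I signalling, had a log2 signal of -3.05 with Pre-miR-376c and -4.10 with its control, and of -3.08 with siGRB2-2 and -3.46 with its control. Pre-miR negative control was low, and the 2 treated arrays lay together above both controls, by 1.05 for Pre-miR-376c and 0.38 for siGRB2-2 against the own control. OASL was read with 1 probe.

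The OAS enzymes make the messenger that activates RNase L. OAS2 was at -2.70, -2.97, -2.52 and -2.19, lowest on Pre-miR negative control and highest on siRNA negative control, and its 3 probes gave 0.60 to 0.91 between these. OAS3 had the same lowest and highest array, at -2.89, -3.22, -2.80 and -2.72. OAS1 was at -2.17, -2.02, -1.95 and -2.34, and so lowest on siRNA negative control. With Pre-miR-376c the 3 probes of OAS2 did not share a sign against Pre-miR negative control (-0.19 to 0.67).

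MX1, a GTPase that traps viral nucleocapsids, was at 0.33 with Pre-miR-376c and 0.12 with its control, and at 0.53 with siGRB2-2 and 1.27 with its control. The last array was 0.74 above the next highest. MX2, its relative in the nuclear envelope, was at -3.00, -2.71, -2.36 and -1.95, with both siRNA arrays above both Pre-miR arrays. ISG20, an RNA exonuclease, had the same order (1.07, 1.28, 1.48 and 1.93).

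BST2 (tetherin, which holds budding virus at the cell surface) was at 2.56, 2.30, 2.56 and 2.80, lowest on Pre-miR negative control. RSAD2 (viperin, an enzyme that makes an antiviral nucleotide) was at -4.89, -5.21, -4.70 and -5.11, and was higher with each treatment than with its control, by 0.32 and 0.41. DDX60, a helicase linked to RIG-I signalling, varied from -0.99 to -0.71. All 6 of these effectors were higher on siRNA negative control than on Pre-miR negative control (0.09 to 1.15), as were 44.0% of all genes. With siGRB2-2, 5 of 6 were lower than with its own control, RSAD2 being the exception, while 58.6% of all genes were higher.

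ISG15, an interferon-induced ubiquitin-like protein that is attached to other proteins, was at 3.67, 3.75, 3.86 and 3.86, and no pair of arrays differed by more than 0.19. USP18, the protease that removes it and a brake on the interferon receptor, was at -2.10, -2.32, -2.18 and -2.30, also within 0.22.

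IFI44 had the widest range over the 4 arrays of the 46 members. IFI44, an interferon-induced cytoplasmic protein, was at 0.53 with Pre-miR-376c and 0.25 with its control, and at 0.09 with siGRB2-2 and 1.42 with its control. For siGRB2-2 the difference was -1.33 from its own control and -0.16 from Pre-miR negative control. IFI44L, its paralog, was at -3.95, -3.86, -3.69 and -2.96, highest on the same array. Both genes were high on siRNA negative control. For IFI44L the difference of siGRB2-2 from its control was -0.73, and it turned to 2.34 with normexp background correction fitted on all spots and back to -0.58 without 7 spots of high local background.

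IFI6, a mitochondrial and endoplasmic reticulum protein, was at -1.55, -1.53, -1.09 and -1.29, higher on both siRNA arrays. IFI35 was at -0.01, -0.21, -0.38 and -0.54, lower on both. XAF1, a proapoptotic protein, was lowest on siRNA negative control (-1.34, against -1.06 to -0.92), and its 2 probes shared a sign in all 6 pairs.

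In the antigen presentation group, TAP2, a subunit of the peptide transporter, was at 0.74 with Pre-miR-376c and 0.64 with its control, and at 0.52 with siGRB2-2 and 1.32 with its control. A second TAP2 probe was not detected on all 4 arrays and was left out. With that probe averaged in, the TAP2 difference of siGRB2-2 from its control went from -0.81 to -0.13 and that between the negative controls from 0.68 to 0.06, and TAP2 no longer passed 1.5-fold. TAP1, the other subunit, did not share this pattern and was at 2.67, 2.30, 2.23 and 2.16, highest with Pre-miR-376c. The difference of siGRB2-2 from its control was -0.81 for TAP2 and 0.07 for TAP1. PSMB9, a subunit of the immunoproteasome, was at 3.05, 2.76, 2.58 and 3.04, and PSMB8, another, stayed within 1.18 to 1.34.

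B2M, the light chain of MHC class I, was read with 10 spots and was at 5.61, 5.68, 5.41 and 5.97, lowest with siGRB2-2 and highest on its control. HLA-B, a heavy chain, was at 4.90, 5.02, 5.01 and 5.35, with its 2 probes within 0.09 of each other between the negative controls (0.28 and 0.37). HLA-C was at 5.15 to 5.36 and HLA-E at 3.38 to 3.77. Sequences of the heavy chains resemble each other, so that a probe of one may also bind the RNA of another.

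TRIM25, the ubiquitin ligase that activates RIG-I, was at 3.68 with Pre-miR-376c and 3.77 with its control, and at 3.55 with siGRB2-2 and 4.37 with its control. It was high on the last array alone, 0.60 above the next. TRIM21, a ligase that binds antibody on virus in the cytosol, was highest with siGRB2-2 (-2.07, against -2.45 to -2.30). PARP9, a partner in the interferon response, was highest with Pre-miR-376c (-0.37, against -0.72 to -0.59). SP100, a nuclear body protein, had 3 probes that gave -0.54 to 0.95 between the negative controls, so its mean has no clear direction there.

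**Figure D4:**
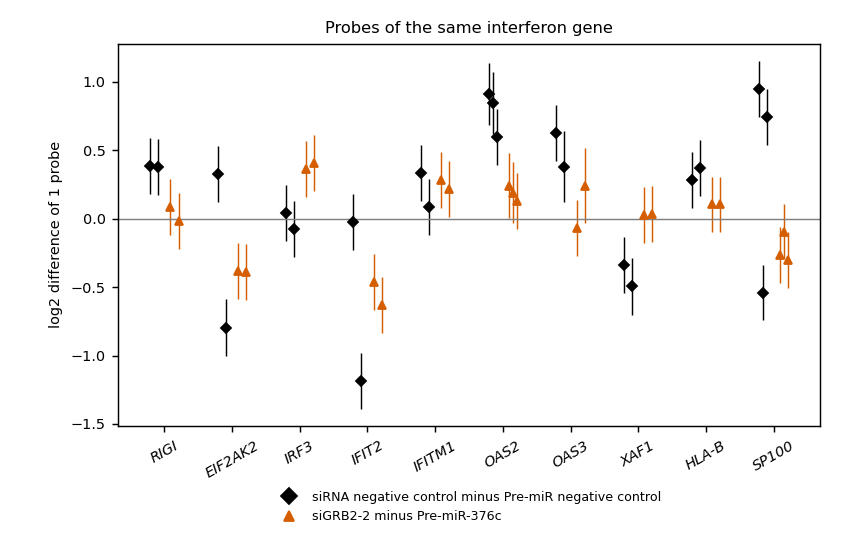
Log2 difference of every probe of the 10 members with more than 1 probe, for siRNA negative control minus Pre-miR negative control (black) and siGRB2-2 minus Pre-miR-376c (orange). Bars are the scanner software's error; the probes of EIF2AK2, IFIT2 and SP100 lie more than 1 apart in the first pair, and those of RIGI, HLA-B and XAF1 lie close together.

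Probes of the same gene show how far 1 probe can be relied on, which matters as 36 of the 46 members had only 1. Of the 10 members with several, 7 had the same sign for all probes between the negative controls and 6 in each treatment against its own control. Over the 3207 genes with several probes, the shares were 54.8%, 64.4% (Pre-miR-376c) and 58.1% (siGRB2-2). The members' probes were closest between siGRB2-2 and Pre-miR-376c, where the median spread was 0.09 and 8 of 10 shared a sign. That pair was also the closest over the 3207 genes, with a median spread of 0.15 and 71.1% sharing a sign.

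Taken by kind of reagent, 12 members were higher on both siRNA arrays than on both Pre-miR arrays (MX2, IFI6, ISG20, MX1, OAS2, IFI44L, ISG15, OAS3, IFITM1, RIGI, DHX58 and BST2; 26.1%, against 12.8% of all genes), and 9 were lower on both (IFIT2, EIF2AK2, IFIH1, IRF1, IFI35, IFIT3, PSMB8, TLR3 and TAP1; 19.6%, against 10.0%). By treatment, 8 members were higher on both treated arrays than on both controls (OASL, RSAD2, HLA-C, IRF9, PARP9, USP18, TRIM21 and IRF3; 17.4%, against 20.1%) and 6 were lower (STAT2, TRIM25, B2M, IFIT1, IFIT5 and HLA-B; 13.0%, against 13.6%). With 75th percentile scaling, the share that separated by kind of reagent was larger among members than among all genes in both directions. The share that separated by treatment was near that of all genes. Between the reagents, the gaps ran from 0.006 (BST2) to 0.35 (MX2) for higher members and from 0.06 (TAP1) to 0.50 (IFIT2) for lower ones. The smaller gaps lay within the reading error. With median scaling RIGI, DHX58, OAS3, BST2, IFIH1, TLR3, EIF2AK2, IFIT3, PSMB8 and TAP1 no longer separated by reagent. TRIM25, B2M, IFIT1 and IFIT5, among others, no longer separated by treatment. The shares under that scaling were not computed. Kind of reagent and other differences between the cultures cannot be told apart with 1 array each.

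Members with and without the promoter core were compared by their medians. The widest gap was between Pre-miR-376c and siRNA negative control, with a median log2 difference of -0.18 for the 24 measured members with the core and 0.09 for the 12 without, against 0.07 and 0.05 over all genes. Between siGRB2-2 and its control the medians were -0.13 and -0.09, and between the negative controls 0.10 and 0.15. Of the transcription factors with a promoter at hand, 0 of 3 held the core, and of the IFIT family 3 of 3. TRIM25, which was high on siRNA negative control, had no match in its window.

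A further 77 genes of the pathway were listed, of which 76 had a probe and 63 were measured. Of the interferons, IFNB1, IFNK, IFNL1, IFNL3, IFNG and IFNA2 were not well above background on any array. IFNL2 was detected on all 4 at -4.95 to -4.55, and IFNE, an epithelial interferon, was at 0.09 on Pre-miR negative control and at -0.95 to -0.85 on the others. All 9 receptors and kinases were measured. Differences of Pre-miR-376c from its control lay between -0.55 (TYK2, a receptor kinase) and 0.22 (IFNGR2, a receptor chain for interferon gamma). For siGRB2-2 against its control they lay wider, between -0.79 (the receptor IFNAR1) and 0.96 (TYK2). The negative controls themselves differed by -1.11 for TYK2 (siRNA minus Pre-miR).

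Across the 63 genes the median log2 difference from the own control stood at 0.00 with Pre-miR-376c, against 0.07 with siGRB2-2, with 1 gene past 2-fold in the first pair and 4 in the second. These are shares near those of all genes past 2-fold in either direction, 1.14% and 6.74%. TRIM22, an antiviral ubiquitin ligase, was higher with both treatments, at -3.00 with Pre-miR-376c against -4.32, and at -1.96 with siGRB2-2 against -3.95. Its differences were 1.32 and 1.99. The other 3 were lower with siGRB2-2: IFI16, a DNA sensor (-1.28), PSMB10, an immunoproteasome subunit (-1.19), and PLSCR1, a scramblase with antiviral activity (-1.14). Against Pre-miR negative control, siRNA negative control was 0.93, 1.17 and 1.07 higher for these 3 in the same order. CXCL10 and CCL5, chemokines that interferon induces strongly, were each detected on 1 array, which for both was Pre-miR negative control. That array had the most detected probes (24119). CXCL11 and HERC5 were detected on none.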

How the data were processed

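Gene expression was measured in HuCCT1 cells on 4 one-colour Agilent 44 K arrays, 1 per condition, grouped by the transfection in the labels. The authors deposited the spot intensities of Agilent Feature Extraction (10.7.3.1), background-subtracted by that software, and a table of log2 values per probe. Apart from a constant per array, the deposited log2 values equalled those computed here within 0.01 for 99.95% to 99.96% of the probes, and their column medians were -3.59 to -3.36. Log2 processed intensities were shifted to the 75th percentile of the non-control spots, without 289 to 329 outlier spots per array, and the mean over the spots was taken for each probe. None was saturated. A probe was detected when well above background on more than 0.5 of its spots, which held on all 4 arrays for 21239 of 34127 probes. Accessions named 25422 probes (74.5%) by way of RefSeq annotation (GRCh38.p14), which also gave the sequences printed but no positions of probes. Probes of a gene were averaged.

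With 1 array per condition no test was made, and precision is limited by their number. Counts past 2-fold and 1.5-fold were read against the share of all measured genes. All members were to be named, with the interferons, their receptors, GRB2 and other pathway genes past 2-fold against the own control. Members and lists were chosen with earlier results of these data known. Python (3.11.15), numpy (2.4.6), pandas (2.3.3), matplotlib (3.10.9), R (4.3.3) and limma (3.58.1) were used, and the counting step was tested on simulated data. The alternatives were other scalings, background correction by normexp (offset 50, on the median intensity), the deposited table, the brightest probe per gene, outlier spots kept, no detection filter and a 1.5-fold limit.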

Additional observations from a re-analysis of the deposited data

How the results depend on the processing

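The limit used for a move of the members' median was 0.0768, the noise between spots of a probe in a difference between 2 arrays. It is not the noise of a median over genes. The median log2 difference of the members moved beyond that limit as follows. With scaling on the array median it was 0.11 with Pre-miR-376c and, for siGRB2-2, -0.35 against the own control, -0.14 for Pre-miR-376c against siRNA negative control, 0.36 between the negative controls and -0.10 between the treatments. With normexp it was -0.59 for siGRB2-2 against its control, -0.23 against Pre-miR negative control and -0.25 against Pre-miR-376c. For siGRB2-2 against its control it was -0.15 with the deposited table and -0.15 with the brightest probe per gene.

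Counts of members past 2-fold moved as well. For Pre-miR-376c against its control (1 member) normexp gave 0 (0.426% of all genes). For siGRB2-2 against its control (1) quantile normalization gave 2 (5.68% of all genes) and scaling on the median 6 (8.80%). In that pair normexp gave 22 (57.3%), no detection filter 2 (9.30%) and the 1.5-fold limit 8. For Pre-miR-376c against siRNA negative control (1) quantile normalization (4.01% of all genes), the deposited table (4.68%) and no detection filter (6.73%) gave 2. There the median gave 6 (5.72%), a percentile over detected probes (4.80%) and normexp (2.46%) gave 0, and the 1.5-fold limit 9. For siGRB2-2 against Pre-miR negative control (1) the percentile over detected probes gave 0 (0.904% of all genes), normexp 19 (49.5%) and the 1.5-fold limit 2. Between the negative controls (2) the median gave 6 (7.91% of all genes) and the 1.5-fold limit 12. Between the treatments (0) normexp gave 15 (51.0%) and the 1.5-fold limit 1. The normexp fits held 7 spots whose local background exceeded 10-fold the median one. Without these spots, a choice made after seeing the data, siGRB2-2 had 1 member past 2-fold against its control and 0 against Pre-miR negative control and Pre-miR-376c, with medians of -0.09, 0.06 and 0.03. Pre-miR-376c had 0 against either control.

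The median kept its sign under every alternative for siGRB2-2 against its control and between the negative controls, and changed it under at least 1 of them in the other 4 pairs. The log2 difference of OASL for Pre-miR-376c was 0.86 to 1.17 and that of IFI44 for siGRB2-2 was -1.61 to -1.25 against the own control over the alternatives. With normexp, OASL was 3.18 higher for siGRB2-2 against Pre-miR negative control, and 1 of the 8 members past 1.5-fold for siGRB2-2 against its own control, IFI44L, changed sign to 2.34. Other members past 1.5-fold fell inside that limit under some alternatives, of which these are examples. For siGRB2-2 against its control, IRF9 moved to 0.36 with scaling on the median and STAT2 to -0.53 after quantile normalization. With the brightest probe, IFIT2 moved to -0.02 between the negative controls and to -0.46 for siGRB2-2 against Pre-miR negative control. For Pre-miR-376c against siRNA negative control, TRIM25 moved to -0.49 after quantile normalization and IRF1 to 0.52 with scaling on the median. No paired analysis was possible because there was only 1 array for each condition. A difference between 2 arrays holds the variation between cultures, labelling and hybridization, none of which can be told apart from the treatment.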
